A study of Mus musculus with 121 samples.

Results

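The genes described here are 33 macrophage and myeloid markers, chosen by name from the 25759 genes of each table as transcripts that macrophages, monocytes and related white cells make in quantity. All 33 were found in both tables. They were sorted by role into C1q complement genes, Fc receptors and their signalling adaptors, scavenger and pattern receptors, lysosomal and killing genes, receptors for growth factors, chemokines and adhesion, and general white cell genes. Of these, 32 passed the expression filter in every fit. The other gene, Itgam, which encodes the integrin chain CD11b, was listed at 0 in all 120 libraries and has no usable level.

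C57BL/6 mice with both copies of a gene the labels write as PEP (wild type, WT), with 1 copy (HET) or with none (KO) gave liver and gonadal fat for RNA sequencing. From 8 weeks of age they ate chow, a diet high in fat (HFD), Control or Alios for 18 weeks. The labels give chow with 10% of calories as lipid and mark HFD as 45%. The labels do not give the sex, the construct of the deletion or the make-up of the Control and Alios diets. Chow liver libraries numbered 5 WT, 8 HET and 5 KO, and HFD liver libraries 8, 11 and 9. Liver on Control came from 5, 4 and 1 mice, and on Alios from 6, 5 and 8. Adipose tissue came from 4, 8 and 5 mice on chow and from 8, 11 and 9 on HFD, and 44 mice gave both tissues.

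Macrophages settle in nearly every tissue, in liver as Kupffer cells along the sinusoids and in fat between the adipocytes, and monocytes from blood can replace or add to them. They depend on signals through the receptor Csf1r, take up dying cells and debris through scavenger and Fc receptors, and break them down in lysosomes. In obese mice, macrophages gather in visceral fat around dying adipocytes. The sequencing was of whole tissue, so more macrophages and more RNA per macrophage cannot be told apart in any value below.

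The 75 liver libraries held between 42692 and 8854246 counts (median 3191160), and the 45 adipose libraries between 4236655 and 6699887. Alios KO 8 had the fewest, and the next liver library had 1027087. PEP was read as Pepd, which encodes the peptidase prolidase, a reading based on knowledge of the study. Pepd averaged 43 ± 3.83 CPM (a gene's counts relative to the scaled total of its library) in chow WT liver (SD, n = 5), 21.6 ± 2.07 in chow HET liver (n = 8) and 1.65 ± 1.13 in chow KO liver (n = 5). In chow adipose tissue the mean was 83.8 ± 17.8 CPM for the 4 WT libraries, 57.9 ± 7.13 for the 8 HET libraries and 17.8 ± 11.3 for the 5 KO libraries. In 1 mouse labelled HET on HFD, Pepd was at the KO level in both tissues, 1.22 CPM in liver HET 8 and 21.8 in adipose HET 3. The adipose libraries chow WT 2, HET 2 and KO 1 carried 15568, 13216 and 12019 CPM of epididymis transcripts, and adipose HFD WT 6 carried 46685 CPM of hepatocyte transcripts.

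Many genes of macrophages are bound near their start by PU.1, the factor encoded by Spi1. Promoter sequence is shown for 4 members that rose in KO liver on chow and held a match to the searched letters before their start. They were picked for holding a match, so they do not show how common it was among members that rose. The letters searched were GAGGAA and, as a longer form that contains it, GAGGAAGT, on both strands. Capitals mark the match, which reads TTCCTC or ACTTCCTC where it lies on the opposite strand. Sequences are from RefSeq on GRCm38.p6, 5′ to 3′ along each gene, and end before the gene's start. C1qc is shown at chr4:136893066-136893164 (minus strand), C1qb at chr4:136886201-136886320 (minus strand), Fcgr1 at chr3:96293970-96294089 (minus strand) and Ctss at chr3:95526536-95526785 (plus strand).
C1qc: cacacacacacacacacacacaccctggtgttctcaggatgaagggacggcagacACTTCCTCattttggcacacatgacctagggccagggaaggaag
C1qb: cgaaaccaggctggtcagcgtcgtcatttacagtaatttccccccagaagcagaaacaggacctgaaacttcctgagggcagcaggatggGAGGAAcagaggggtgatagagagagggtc
Fcgr1: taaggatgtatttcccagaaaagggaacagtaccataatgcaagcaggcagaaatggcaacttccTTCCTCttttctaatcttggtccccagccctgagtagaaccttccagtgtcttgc
Ctss: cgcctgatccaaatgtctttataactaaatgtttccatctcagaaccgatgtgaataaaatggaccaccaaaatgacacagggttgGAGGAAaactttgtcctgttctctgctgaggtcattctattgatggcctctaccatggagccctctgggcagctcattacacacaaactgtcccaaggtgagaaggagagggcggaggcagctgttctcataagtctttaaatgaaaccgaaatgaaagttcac

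A promoter window of 250 bases before and 50 after the start was at hand for 25 of the 33 members. The short form was present in the windows of 16 of these 25 genes (64%), against 31.3% of the 27025 genes with a window. The longer form was in 3 of the 25 (12%), namely C1qc, Ctss and Pld4, against 3.69% of all genes, and in Ctss and Pld4 it lay across or after the start, outside the bases shown. These are matches of letters only, and no binding was measured.

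On chow, macrophage genes were higher in KO liver than in WT liver. Of the 32 members tested, 24 rose and none fell, where 2.47% of all 11064 genes passed the same test upwards and 3.4% in either direction (edgeR quasi-likelihood test, adjusted p under 0.05). The members' median log2 fold change was 1.48, against 0.01 over all genes. By role, all 3 C1q genes and all 6 lysosomal and killing genes rose, as did 4 of 5 Fc receptor and adaptor genes, 5 of 7 scavenger and pattern receptors, 2 of 4 receptors for growth factors, chemokines and adhesion, and 4 of 7 general white cell genes. The spread behind these p-values is that between mice within groups, estimated jointly over all 6 chow and HFD groups of liver.

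The genes C1qa, C1qb and C1qc lie side by side on chromosome 4, between bases 136880129 and 136898803 in GRCm38, and encode the 3 chains of C1q, which starts the classical complement cascade and in tissues is made largely by macrophages. C1qc stood at 32, 163, 104, 44.1 and 139 CPM in KO 1 to KO 5, and at 40.2, 20, 30.1, 28.8 and 21.7 CPM in WT 1 to WT 5. C1qb stood at 34.9, 216, 121, 58.3 and 182 CPM in the KO livers and at 59, 31.7, 38.1, 31.5 and 35.3 in the WT livers. C1qa stood at 34.9, 169, 97.1, 44.6 and 136 CPM in the KO livers and at 51.6, 22, 28.6, 33.8 and 22.2 in the WT livers. For each of the 3 genes, KO 2, KO 3 and KO 5 lay far above every WT liver, whereas KO 1 lay within the WT range and KO 4 within it or just above it, so the groups overlapped. The fold changes were 3.28 for C1qc (log2 1.71 ± 0.30 SE), 3.04 for C1qb (1.60 ± 0.32) and 2.91 for C1qa (1.54 ± 0.32), with edgeR adjusted p-values of 0.00137, 0.00395 and 0.00432.

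Tyrobp (chromosome 7, 30413760 to 30417585) and Fcer1g (chromosome 1, 171229572 to 171234365) encode the adaptors DAP12 and FcRγ, which carry the activating signal of many myeloid receptors. Tyrobp was at 15.8, 72.6, 61.6, 19.6 and 64.4 CPM in KO 1 to KO 5 and at 17.9, 11.2, 13.6, 13.5 and 10.6 in the WT livers. Fcer1g was at 12.5, 41.5, 43.8, 14.2 and 59.8 CPM in KO and at 15.1, 8.79, 9.44, 13.5 and 6.56 in WT. Fcgr3, a low-affinity activating receptor for IgG, was at 8.09, 34.4, 25.1, 11.9 and 32.6 CPM in KO and at 8.53, 9.77, 6.79, 5.75 and 6.05 in WT. Here too the same 3 KO livers stood apart, KO 1 lay within the WT range, and KO 4 lay above it for Tyrobp and Fcgr3 only. Tyrobp rose 3.32-fold (log2 1.73 ± 0.31, edgeR adjusted p = 0.00137). Fcer1g rose 2.97-fold (1.57 ± 0.33, edgeR adjusted p = 0.00509) and Fcgr3 2.91-fold (1.54 ± 0.33, adjusted p = 0.00589). Fcgr1, the high-affinity IgG receptor, rose 3.93-fold (1.97 ± 0.43, edgeR adjusted p = 0.00679).

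Fcgr2b was the exception among Fc receptors in liver. It encodes the inhibitory IgG receptor, which liver sinusoidal endothelial cells also express in quantity. Fcgr2b was at 64.4, 59.9, 60.7, 72.5 and 75.3 CPM in the KO livers and at 87.2, 63, 81.2, 72.4 and 62.5 in the WT livers. The log2 fold change was -0.15 ± 0.12 (edgeR adjusted p = 0.515), and the mannose receptor Mrc1, likewise found on sinusoidal endothelium, gave -0.05 ± 0.17 (adjusted p = 0.923).

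Among lysosomal genes, Pld4, an exonuclease of endolysosomes, was at 11, 51.9, 35.1, 16.5 and 45 CPM in KO and at 15.3, 8.3, 7.38, 12.5 and 7.06 in WT. It rose 2.95-fold (log2 1.56 ± 0.32, edgeR adjusted p = 0.00432). The other 5, lysozyme (Lyz2), cathepsin S (Ctss), the pore-forming Mpeg1, the lysosomal membrane protein Laptm5 and the oxidase subunit Cybb, rose by 2.43-fold to 2.85-fold with edgeR adjusted p-values from 0.0114 to 0.0421. Csf1r, the receptor for the survival factor of macrophages, was at 52.6, 214, 139, 63.1 and 165 CPM in KO and at 62.5, 39.6, 43.4, 41.6 and 39.3 in WT. It rose 2.74-fold (1.45 ± 0.28, edgeR adjusted p = 0.00234), and 4 of the 5 KO livers lay above every WT liver.

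The largest fold among members was that of Cd14, the co-receptor for bacterial lipopolysaccharide, at 5.09-fold (log2 2.35 ± 0.59, edgeR adjusted p = 0.0166). Its level was low and uneven, at 1.1, 21.2, 7.75, 1.42 and 12.4 CPM in KO against 1.53, 0.977, 2.66, 1.02 and 1.51 in WT. Ccr2, the receptor that draws monocytes from marrow and blood, rose 4.16-fold (2.05 ± 0.56, adjusted p = 0.0308). Adgre1, which encodes F4/80, missed the threshold at 2.31-fold (1.21 ± 0.37, edgeR adjusted p = 0.0545), as did Ly86 (2.1-fold, 0.055), Ptprc (2.27-fold, 0.101), Cd163 (2.13-fold, 0.123), Cd84 (1.47-fold, 0.311) and Cx3cr1 (1.76-fold, 0.396).

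**Figure D1:**
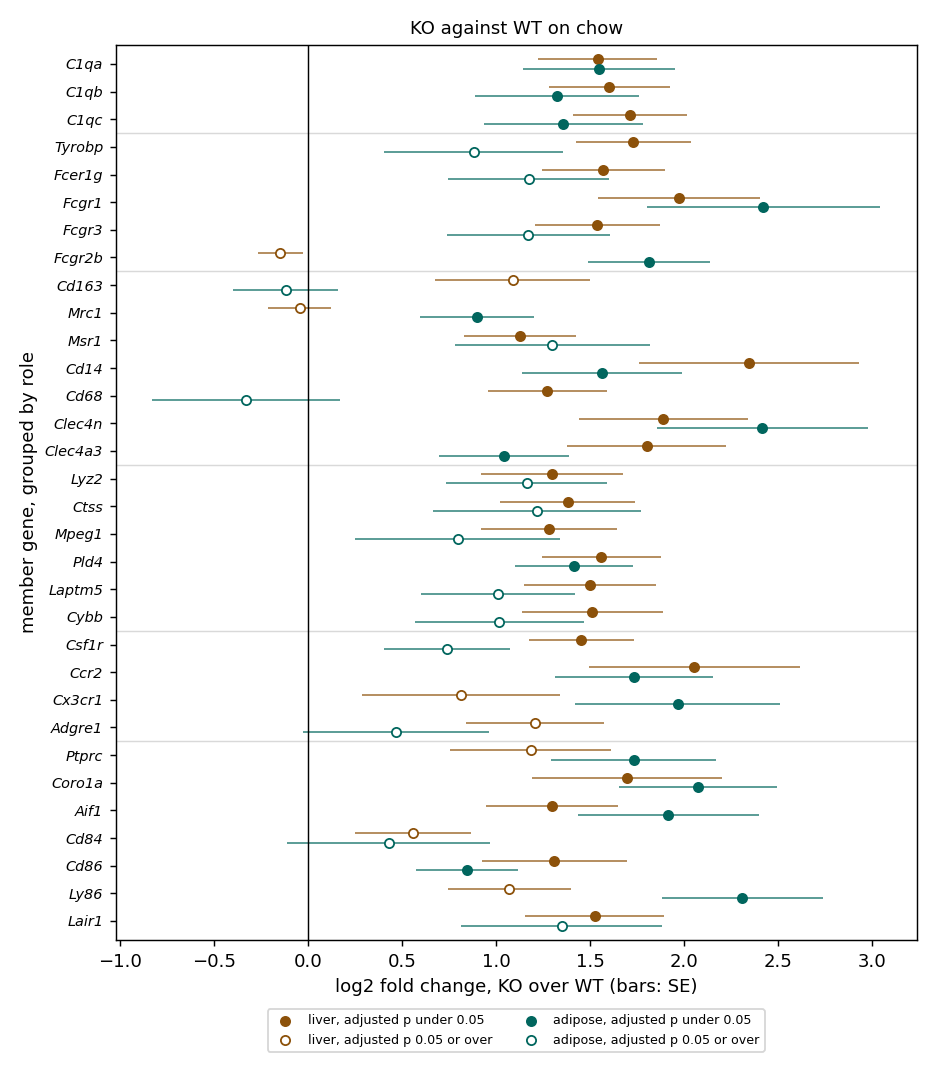
Log2 fold change of each of the 32 tested members, KO over WT on chow, in liver (brown) and gonadal adipose tissue (green). Points are the edgeR estimates, bars are SE, filled points have an adjusted p under 0.05, and lines separate the roles. In liver 24 points are filled and in adipose tissue 17, all to the right of 0. Fcgr2b lies at -0.15 in liver and at 1.81 in adipose tissue.

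The increase rested on 3 of the 5 KO livers. In KO 2, KO 3 and KO 5, 30, 28 and 30 of the 32 members lay above the highest WT liver, where 24.7%, 25.9% and 26% of all genes did. In KO 1 and KO 4 the numbers were 3 and 11 of 32, against 14.4% and 11% of all genes. Without KO 2 only 2 members passed, C1qc and Tyrobp, and without KO 5, KO 3, WT 2 or WT 5 the counts were 13, 14, 15 and 16. When the spread was taken from the WT and KO livers on chow alone, no member passed in edgeR, against 24 when all 6 chow and HFD groups shared it. Within mice numbered under 500 (3 KO, 3 WT), the median over members of the KO minus WT log2 difference was 0.74, and 30 of 32 were above 0. Within mice numbered 500 and over (2 KO, 2 WT) it was 2.09, and 31 of 32 were above 0.

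Markers of several other cells moved in the same livers, though not all of them in step. The summed level of 10 markers of resident liver macrophages was 1700, 1388 and 1238 CPM in KO 2, KO 3 and KO 5, 661 and 655 in KO 1 and KO 4, and 507 to 742 in WT. The 10 monocyte markers summed to 118, 57.5 and 72.2 CPM there, to 14 and 24.4 in KO 1 and KO 4, and to 8.07 to 26.9 in WT. The 12 T and NK cell markers summed to 22.6, 18.7 and 20.2 CPM there, to 6.99 and 21.9 in KO 1 and KO 4, and to 5.37 to 12.5 in WT. The 10 neutrophil markers summed to 131, 43.8 and 109 CPM in the same 3 livers, and to 3.42 to 26.7 in WT. The 8 hepatocyte markers summed to 40328, 73411 and 47860 CPM there, and to 85119 to 124074 in WT, while the 7 B cell markers gave 6.6, 37.9 and 19.4 CPM against 7.06 to 17.3. No marker of these lists was at 0 in every liver library. Their part in the result was not tested. The 3 high livers were also those highest in neutrophil markers and lowest in hepatocyte markers among the 5 KO livers. They did not stand apart by every list. In T and NK cell markers KO 4 lay above KO 3 and KO 5, and in B cell markers KO 2 lay below every WT liver.

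Genes of the same cells that are not among the members also rose in KO liver on chow. Of 10 resident liver macrophage markers 3 rose, namely Cd5l (3.36-fold, edgeR adjusted p = 0.00224), the Kupffer cell lectin Clec4f (2.3-fold, 0.00513) and the complement receptor Vsig4 (2.25-fold, 0.038). Of 13 macrophage kinases, phosphatases and transcription factors tested, 4 rose and none fell, among them Spi1 (2.63-fold, edgeR adjusted p = 0.0118) and Syk (2.78-fold, 0.0114), the kinase downstream of Tyrobp and Fcer1g. Of 4 macrophage growth factors and chemokines tested, Ccl6 (5.76-fold, edgeR adjusted p = 0.0017) and Csf1 (2.16-fold, 0.00996), a ligand of Csf1r, rose. Of 12 lipid-associated macrophage markers Lgals3 rose (3.44-fold, edgeR adjusted p = 0.0178), and of 5 monocyte markers tested 2 rose, Plac8 (3.23-fold, 0.00516) and Treml4 (2.48-fold, 0.0276). Irf8 and Ccl2, which these lists also hold, were listed at 0 in every library.

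No such difference was detected in HET livers on chow. None of the 32 members passed between HET and WT in edgeR or DESeq2, and none had an unadjusted p under 0.05, where 0% of all genes passed. In HET livers Tyrobp ran from 6.52 to 20.6 CPM with a median of 10.5 (n = 8), a range that spanned that of WT. Against HET, KO livers were higher in 26 of 32 members and lower in none, where 7.91% of all genes passed upwards and 13.5% in either direction, and the median log2 fold change was 1.48. This comparison uses the same 5 KO livers as the one with WT. Tyrobp was 3.77-fold higher (log2 1.92 ± 0.26, edgeR adjusted p = 1.57e-05) and Cd14 6.37-fold higher (2.67 ± 0.50, adjusted p = 0.000539). Leaving out any 1 KO liver left between 18 and 27 members past the threshold.

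On the high-fat diet no difference between genotypes was detected in liver. None of 32 members passed between KO and WT, where 1.72% of all genes did. An unadjusted edgeR p under 0.05 was found for 2 members, Cd163 and Mrc1, and for 1743 of all 11064 genes. The median log2 fold change was 0.04. Cd163, a scavenger receptor for haemoglobin, ran from 4.06 to 22.9 CPM in KO (median 16.3, n = 9) and from 4.1 to 13.6 in WT (median 10.4, n = 8). Of the KO livers 6 lay above every WT liver and 1 below, and the log2 fold change was 0.80 ± 0.33 (edgeR adjusted p = 0.207). Mrc1 gave 0.26 ± 0.12 (edgeR adjusted p = 0.283) and Cd14 -0.72 ± 0.43 (0.423), with 8 of 9 KO livers below the WT mean for Cd14. Tyrobp ran from 11.3 to 29.4 CPM in KO (median 18.6, n = 9) and from 12.7 to 27.7 in WT (median 17.7, n = 8), so the groups covered the same range. C1qc ran from 27.3 to 59.6 CPM in KO (median 35.7) and from 21.7 to 52.2 in WT (median 36.9). HET against WT likewise gave no member past the threshold, where 0.00904% of all genes passed. Unadjusted, 1 member and 924 of all 11064 genes had an edgeR p under 0.05. DESeq2 called no member in either comparison.

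Within KO mice, 18 of 32 members were lower in liver on HFD than on chow and none was higher, where 6.19% of all genes passed downwards and 10.7% in either direction. The chow KO livers are those described above, so this count is not separate from theirs. Pld4, at 11 to 51.9 CPM in the 5 chow livers, ran from 6.01 to 21.5 CPM on HFD (median 10.6, n = 9) and fell 2.67-fold (log2 -1.42 ± 0.27, edgeR adjusted p = 0.000762). Aif1, a calcium-binding protein of activated macrophages, at 5.52 to 27.4 CPM on chow, ran from 3.08 to 9.28 on HFD (median 5.06) and fell 2.73-fold (-1.45 ± 0.30, edgeR adjusted p = 0.00191). The ranges overlapped for both genes, through KO 1 and KO 4 on chow. Without KO 2 the count was 8, of which 7 were lower, without KO 5 it was 10 and without KO 3 it was 11, and with only the KO livers of both diets in the fit it was 11. In WT liver, HFD against chow gave 0 members past the threshold in edgeR and DESeq2, where 1.87% of all genes passed in edgeR. Unadjusted, 2 members and 1698 of all 11064 genes had an edgeR p under 0.05. Of the members' log2 fold changes, 30 of 32 were above 0, with a median of 0.41.

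In HET liver, 4 members were higher on HFD than on chow and none was lower, where 6.97% of all genes passed upwards and 14.2% in either direction. The share of members, 4 of 32, was near the share of all genes in either direction and somewhat above the upward share. Ccr2 ran from 0.943 to 14.2 CPM on HFD (median 4.75, n = 11) and rose 3.11-fold (log2 1.64 ± 0.40, edgeR adjusted p = 0.00408). Clec4a3, an inhibitory C-type lectin, rose 2.22-fold (1.15 ± 0.31, edgeR adjusted p = 0.00975), Cd14 2.81-fold (1.49 ± 0.45, 0.0191) and Mrc1 1.27-fold (0.35 ± 0.12, 0.041). Without the mouse whose Pepd was at the KO level, 3 members passed.

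The KO minus WT effect in liver differed between the diets for 2 members by the test of the difference itself, where 0.145% of all genes passed. Fcer1g differed by -1.85 ± 0.41 (log2, HFD effect minus chow effect, edgeR adjusted p = 0.0453) and Tyrobp by -1.68 ± 0.38 (adjusted p = 0.0485). The next were C1qc and Pld4, each with an edgeR adjusted p of 0.0533, and 30 of 32 differences were below 0. The count depended on the model: DESeq2 gave 14, a fit of all 12 liver groups 17, and a fit of only the 4 groups compared 0. Leaving out single chow livers moved it between 0 and 20, with 0 without KO 2, KO 3, KO 5, WT 2, WT 3 or WT 5, 11 without WT 1, 12 without WT 4, 19 without KO 4 and 20 without KO 1.

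**Figure D2:**
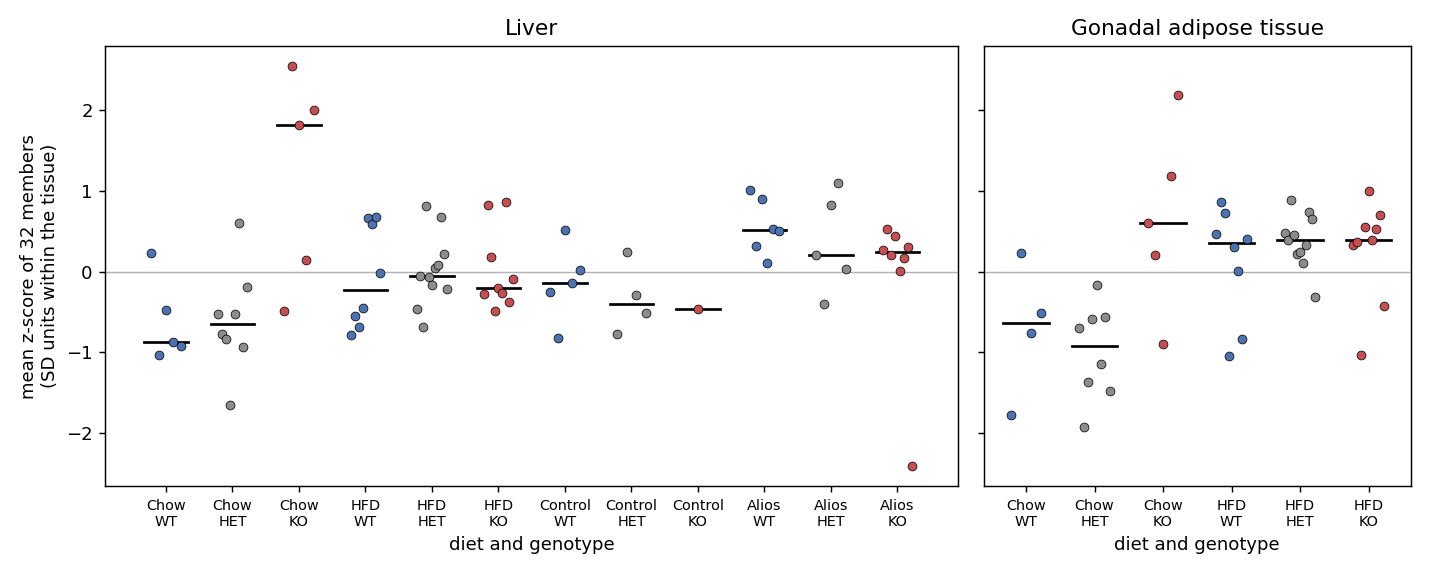
Mean z-score of the 32 members in each library (SD units of log2 CPM across the libraries of that tissue), by diet and genotype, in liver (left) and gonadal adipose tissue (right). Each point is a mouse and bars are group medians. In chow KO liver 3 points lie between 1.82 and 2.54 and the other two at 0.14 and -0.49. The lowest liver point, -2.41, is the library with the fewest counts.

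Averaging each mouse's z-scores over the 32 members gave a compact view of all groups, used as a description only. In liver the group medians were -0.87 in chow WT, -0.65 in chow HET and 1.82 in chow KO, and between -0.23 and -0.06 in the 3 HFD groups. On Control the medians were -0.15 in WT and -0.40 in HET, with the single KO liver at -0.47, and on Alios they were 0.51, 0.20 and 0.24. Chow KO had the highest group mean for 29 of the 32 members in liver, although chow and HFD libraries were scaled apart from Control and Alios libraries. One chow HET liver, HET 6, reached 0.61, and 21 of its 32 members lay above the highest WT liver, where 13.7% of all genes did. Between mice, the SD of the mean z-score was 1.30 in chow KO liver and 0.44 to 0.65 in the other chow and HFD liver groups. In adipose tissue it was 1.14 in chow KO and 0.33 to 0.82 in the other groups. By this score the chow KO mice varied more than the groups that shared the estimate of spread with them.

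The Alios and Control diets gave no member past the threshold in any comparison of liver in edgeR or DESeq2. Between KO and WT on Alios, 7 of 32 members had an unadjusted edgeR p under 0.05, as did 1684 of all 11595 genes. Of the members' log2 fold changes, 25 of 32 were below 0 and the median was -0.24. After adjustment 0.224% of all genes passed. HET against WT gave medians of -0.09 on Alios and -0.21 on Control, with no unadjusted p under 0.05 and 0.00862% of all genes past the threshold in each. Between Alios and Control, all 32 members were higher in WT liver, with a median log2 fold change of 0.47. Unadjusted edgeR p-values were under 0.05 for 17 members and for 976 of all 11595 genes, yet after adjustment no gene of the table passed (0%). In HET liver 31 of 32 were higher, with a median of 0.58. Unadjusted p-values were under 0.05 for 20 members and for 1519 of all 11595 genes, and after adjustment 0.19% of all genes passed. Tyrobp, for example, ran from 18.3 to 33.7 CPM in Alios WT (median 21.7, n = 6) and stood between 9.15 and 23.1 CPM in Control WT (n = 5).

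In gonadal adipose tissue on chow, many members were higher in KO than in WT mice, several of them genes that other white cells also express. The macrophage markers Cd68 and Adgre1 were not among those called. All of the WT mice and all but 1 of the KO mice also gave the livers above, so the tissues are not separate sets of mice. Of 32 members 17 rose and none fell, where 8.85% of all 14536 genes passed upwards and 15% in either direction, and the members' median log2 fold change was 1.26 against -0.03 for all genes. All 3 C1q genes rose, as did 2 of 5 Fc receptor and adaptor genes, 4 of 7 scavenger and pattern receptors, 1 of 6 lysosomal genes, 2 of 4 receptors for growth factors, chemokines and adhesion, and 5 of 7 general white cell genes. Whether the tissues differed in their response was not tested.

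The smallest p-value was that of Fcgr2b, the gene that had not moved past the threshold in liver. Fcgr2b (chromosome 1, 170958617 to 170976547) stood at 289, 177, 87.5, 410 and 735 CPM in KO 1 to KO 5, and at 126, 105, 76.9 and 79.2 CPM in WT 2 to WT 5. Only KO 3 lay within the WT range. Fcgr2b rose 3.51-fold (log2 1.81 ± 0.33, edgeR adjusted p = 0.000433), and B cells also express it. Pld4 was at 213, 194, 90.6, 330 and 569.3 CPM in KO and at 49.5, 131, 131 and 108 in WT, a rise of 2.66-fold (1.41 ± 0.31, edgeR adjusted p = 0.00236).

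Clec4n, which encodes the fungal receptor Dectin-2, was at 18.4, 8.59, 4.9, 37.5 and 46.2 CPM in KO and at 2.36, 6.07, 5.66 and 3.12 in WT. Ccr2 was at 134, 90.4, 26.1, 178 and 285 CPM in KO and at 23.5, 60.3, 29.2 and 58.2 in WT. For both genes KO 3 lay within the WT range and the other four KO libraries above it. Clec4n rose 5.34-fold (log2 2.42 ± 0.56, edgeR adjusted p = 0.00345) and Ccr2 3.33-fold (1.74 ± 0.42, edgeR adjusted p = 0.00479).

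The general white cell genes gave the largest group of calls in adipose tissue. Ly86, which encodes MD-1, a partner of a Toll-like receptor homologue on B cells and myeloid cells, was at 144, 94.4, 29.6, 250 and 367 CPM in KO and at 15.8, 53.1, 40.6 and 32.8 in WT. Coro1a, an actin regulator of white cells, was at 212, 213, 69.9, 766 and 535 CPM in KO and at 31.6, 128, 79 and 102 in WT. KO 3 was the only KO library within the WT range for these genes. Ly86 rose 4.96-fold (log2 2.31 ± 0.43, edgeR adjusted p = 0.000533) and Coro1a 4.21-fold (2.08 ± 0.42, edgeR adjusted p = 0.00104). Aif1 was at 56.4, 78.3, 8.98, 150 and 162 CPM in KO and at 13.5, 36.3, 32.9 and 13.6 in WT, so that KO 3 lay below and the other four above every WT library. Ptprc, the pan-leukocyte phosphatase CD45, was at 226, 88.9, 53.2, 315 and 321.7 CPM in KO and at 22.4, 102, 44.2 and 72.8 in WT, with KO 2 and KO 3 within the WT range. Aif1 rose 3.78-fold (1.92 ± 0.48, edgeR adjusted p = 0.00626) and Ptprc 3.32-fold (1.73 ± 0.44, edgeR adjusted p = 0.00697).

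The standard macrophage markers Cd68 and Adgre1 did not pass in adipose tissue on chow. Cd68, a lysosomal glycoprotein, was at 121, 129, 125, 122 and 291 CPM in KO and at 53.1, 452, 76.7 and 211 in WT, with a log2 fold change of -0.33 ± 0.50 (edgeR adjusted p = 0.679). Adgre1 was at 156, 102, 82.2, 108 and 313.9 CPM in KO and at 36.9, 231, 66.8 and 105 in WT (0.47 ± 0.50, edgeR adjusted p = 0.546). WT 3 was the highest WT library for both genes and exceeded all 5 KO libraries for Cd68 and 4 of the 5 for Adgre1.

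The number of members above the highest WT adipose library was 18, 13, 0, 25 and 30 of 32 in KO 1 to KO 5, where 25.1%, 18.5%, 12%, 30.8% and 27.9% of all genes were. Leaving out KO 5 reduced the count of called members to 8 and leaving out KO 3 raised it to 26. Without the 3 libraries that carried epididymis transcripts, KO 1 among them, 11 members passed, and with only WT and KO on chow in the fit none passed in edgeR, against 17. Within mice numbered under 500 the median log2 difference was 0.58 and within those numbered 500 and over 2.001, with 31 of 32 members above 0 in each. Between HET and WT adipose tissue on chow no member passed in edgeR (0 of 32, 0 with an unadjusted p under 0.05, 0 in DESeq2, 0% of all genes), and 29 of 32 log2 fold changes were below 0, with a median of -0.34.

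Genes of other white cells also rose in KO adipose tissue on chow. All 7 B cell markers rose, among them Cd79a (22.6-fold, edgeR adjusted p = 0.000875), Cd79b (17.3-fold, 0.00128) and Cd22 (15.1-fold, 0.000778). Their sum was 670, 341.4, 30.7, 2310 and 684 CPM in KO 1 to KO 5 against 17.3 to 72.5 in WT. Of 5 neutrophil markers tested 4 rose, with S100a9 at 77.7-fold (edgeR adjusted p = 0.000108) and Cxcr2 at 70.7-fold (0.000639), and the sum of all 10 was 102, 60.6, 19.8, 627 and 807 CPM in KO against 20.3 to 233 in WT. Of 10 monocyte markers 8 rose, among them F13a1 (2.41-fold, edgeR adjusted p = 0.0013) and Chil3 (8.82-fold, 0.00461). The adipocyte markers summed to 12719, 8048 and 15235 CPM in KO 1, KO 4 and KO 5, to 47484 and 41885 in KO 2 and KO 3, and to 23557 to 40077 in WT. The part of these cells in the members' values was not tested, and no B cell, neutrophil, monocyte or adipocyte marker was at 0 in every adipose library.

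Of the macrophage kinases, phosphatases and transcription factors, 11 of 13 rose in KO adipose tissue on chow, led by Fgr (4.6-fold, edgeR adjusted p = 0.00083), Plcg2 (3.23-fold, 0.000911) and Syk (3.34-fold, 0.00394). The lipid-associated macrophage markers, which mark macrophages loaded with fat in obese tissue, did not rise. Of 12, none passed upwards and Lpl, the lipoprotein lipase that adipocytes also make, fell 2.09-fold (edgeR adjusted p = 0.0395). Their sum was 3834, 7031, 11763, 1569 and 2865 CPM in KO 1 to KO 5 against 7640 to 13577 in WT. Lpl held 2330744 of the counts of this list over all adipose libraries, more than the other 11 genes together, and the 3 lowest sums were those of the KO libraries lowest in adipocyte markers.

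High-fat feeding raised most members in adipose tissue of HET mice. Of 32 members 25 rose and none fell, where 34.4% of all genes passed in either direction and 15.6% passed upwards, and the median log2 fold change was 1.21. The smallest p-values belonged to Cd68, Cd84, Adgre1, Mpeg1, Cybb, Ctss, Ptprc and Tyrobp. Cd68 ran from 42.5 to 242 CPM on chow (median 96.2, n = 8) and from 388 to 873 on HFD (median 540, n = 11). Adgre1 ran from 36.1 to 166 CPM on chow (median 60.9) and from 174 to 488.1 on HFD (median 375). Mpeg1 ran from 47.8 to 321.99 CPM on chow (median 88.5) and from 381.9 to 930 on HFD (median 726). For these 3 genes every HFD library lay above every chow library. The share of all genes separated in this way was not counted, here or for the members below. Cd68 rose 5.2-fold (log2 2.38 ± 0.38, edgeR adjusted p = 1.96e-05), Adgre1 4.74-fold (2.25 ± 0.37, 2.8e-05) and Mpeg1 5.38-fold (2.43 ± 0.41, 3.67e-05).

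Cd84, an adhesion receptor of the SLAM family, ran from 8.51 to 62.4 CPM on chow (median 21.1) and from 93 to 260 on HFD (median 150). Ctss ran from 65 to 392.1 CPM on chow (median 133) and from 593 to 1484 on HFD (median 821). Tyrobp ran from 46.4 to 158 CPM on chow (median 87.4) and from 206 to 603 on HFD (median 329). The ranges did not overlap for these genes either, nor for Cybb, at 28.9 to 103 against 135 to 326 CPM, or Ptprc, at 28.7 to 81.4 against 96.9 to 258 CPM. The fold changes were 5.58 for Cd84, 5.02 for Ctss, 3.76 for Tyrobp, 3.75 for Cybb and 3.29 for Ptprc, with edgeR adjusted p-values from 2.76e-05 to 8.51e-05. The 7 members that did not pass were Ccr2, Pld4, Cd86, Cd163, Aif1, Fcgr2b and Clec4n. Aif1, for instance, ran from 9.67 to 22.4 CPM on chow and from 8.79 to 27.2 on HFD (log2 0.42 ± 0.33, edgeR adjusted p = 0.324).

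The lipid-associated macrophage markers rose with HFD in HET adipose tissue. Of 12, 10 rose, led by Itgax (8.05-fold, edgeR adjusted p = 1.31e-05), Lgals3 (4.87-fold, 1.44e-05) and the proton pump subunit Atp6v0d2 (11.7-fold, 1.61e-05), and 1 fell. Of 13 macrophage kinases, phosphatases and transcription factors 11 rose, among them Syk (3.19-fold, edgeR adjusted p = 4.67e-05), Btk (3.02-fold, 0.000144) and Spi1 (3.01-fold, 0.000171). Markers of other cells moved with the diet in the same libraries, and their part in the members' values was not tested. The 7 adipocyte markers summed to 19935 to 53838 CPM on chow (median 35342) and to 15792 to 36247 on HFD (median 22281), and 3 of the 7 fell. The 7 B cell markers summed to 21.6 to 73.5 CPM on chow (median 44.6) and to 17.6 to 293 on HFD (median 91.4), and 5 of the 7 rose. The T and NK cell markers had a median sum of 68.1 CPM on chow and 122 on HFD, and 5 of 12 rose. The count of called members was 24 without the mouse whose Pepd was at the KO level and 23 without the libraries with epididymis transcripts.

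In WT adipose tissue the same comparison gave no member past the threshold in edgeR, where 4.57% of all genes passed. Even so, 29 of 32 log2 fold changes were above 0 and their median was 0.75. Unadjusted, 14 of 32 members and 4080 of all 14536 genes had an edgeR p under 0.05. DESeq2 called 8 members. Without chow WT 3, the library in which Cd68 was at 452 CPM, edgeR called 15. WT on chow had 4 libraries here, against 8 of HET.

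In KO adipose tissue, members were called in both directions on HFD. Of 32, 3 rose and 11 fell, where 15% of all genes passed upwards, 20.6% downwards and 35.5% in either direction. The share of members that rose was below that of all genes, and the share that fell was above it. In both directions together 14 of 32 were called, not far above the share of all genes. The members that rose were Cd68, Adgre1 and Cd84. Cd68 ran from 146 to 1112 CPM on HFD (median 556.2, n = 9) and rose 3.96-fold over chow (log2 1.98 ± 0.45, edgeR adjusted p = 0.000859). Adgre1 ran from 98.5 to 675 CPM (median 365) and rose 2.6-fold (1.38 ± 0.43, edgeR adjusted p = 0.0121), and Cd84 ran from 37.1 to 257 CPM (median 171) and rose 2.77-fold (1.47 ± 0.47, edgeR adjusted p = 0.0138). The ranges overlapped with those of the 5 chow KO libraries for all 3.

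The members that fell were Aif1, Clec4n, Fcgr2b, Pld4, Ly86, Cx3cr1, Cd86, Coro1a, Ccr2, Fcgr1 and C1qa. Aif1 ran from 7.01 to 15.8 CPM on HFD (median 12), against 8.98 to 162 on chow, and fell 7.73-fold (log2 -2.95 ± 0.38, edgeR adjusted p = 4.68e-07). Clec4n ran from 2.22 to 3.87 CPM on HFD (median 2.76), below all 5 chow libraries, and fell 8.07-fold (-3.01 ± 0.43, edgeR adjusted p = 2.34e-06). Fcgr2b ran from 74.4 to 150 CPM on HFD (median 100.2) and fell 3.25-fold (-1.70 ± 0.25, edgeR adjusted p = 3.55e-06). For Aif1 and Fcgr2b the overlap came through chow KO 3, the chow KO library with no member above the WT range. Pld4 fell 2.39-fold, Ly86 2.92-fold, Cx3cr1, the fractalkine receptor, 3.45-fold, the co-stimulatory ligand Cd86 1.88-fold and Coro1a 2.4-fold, with edgeR adjusted p-values from 0.000136 to 0.00219.

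In the same comparison, 10 of 12 lipid-associated macrophage markers rose, led by Lgals3 (7.6-fold, edgeR adjusted p = 6.01e-06), Fabp5 (2.7-fold, 1.16e-05) and Itgax (10.9-fold, 2.22e-05). All 7 B cell markers fell, with Cd79b down 14.9-fold (edgeR adjusted p = 8.25e-06), as did all 5 neutrophil markers tested, with S100a9 down 131-fold (9.78e-09), and 7 of 10 monocyte markers. On HFD the B cell markers summed to 32.7 to 184 CPM and the neutrophil markers to 20.7 to 40.3 CPM in KO adipose tissue.

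**Figure D3:**
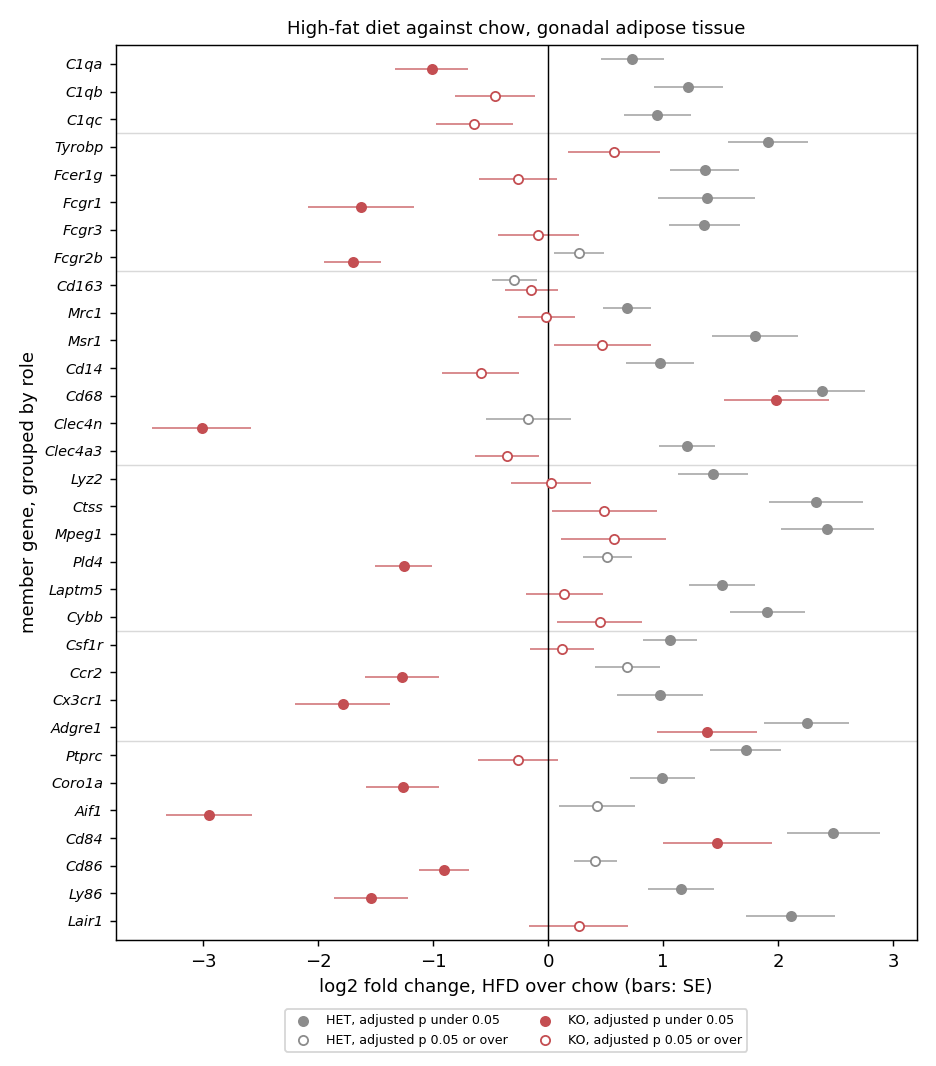
Log2 fold change of each of the 32 tested members in gonadal adipose tissue, HFD over chow, in HET (grey) and KO mice (red). Points are the edgeR estimates, bars are SE, and filled points have an adjusted p under 0.05. In HET mice 25 members are filled to the right of 0. In KO mice Cd68, Adgre1 and Cd84 are filled to the right and 11 members to the left, with Clec4n at -3.01 and Aif1 at -2.95.

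On HFD no difference between genotypes was detected in adipose tissue. Between KO and WT no member passed in edgeR or DESeq2, where 0.0344% of all genes passed in edgeR. Unadjusted, 1 member and 1521 of all 14536 genes had an edgeR p under 0.05, and the members' median log2 fold change was 0.22. Between HET and WT no member passed either, where 0.00688% of all genes did. No member had an unadjusted p under 0.05 there, and the median was 0.18. Cd68 ran from 146 to 1112 CPM in KO and from 107 to 728 in WT, and Aif1 from 7.01 to 15.8 and from 8.64 to 51.9. The KO minus WT effect differed between the diets for 10 of 32 members, all with the lower effect on HFD, where 4.66% of all genes passed in that direction and 6.33% in either. They were Aif1 (log2 -2.87 ± 0.59, edgeR adjusted p = 0.00295), Fcgr2b (-1.89 ± 0.39, 0.00303), Ly86, Clec4n, Pld4, Ccr2, Coro1a, Fcgr1, Cx3cr1 and Cd86. Without the libraries with epididymis transcripts 5 members passed, with only the 4 groups compared 3 passed, and leaving out 1 chow library at a time gave 4 to 13, with 4 without KO 5, 5 without KO 4 or WT 2 and 6 without WT 5. Aif1, Clec4n and Fcgr2b passed under every one of these settings.

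Of the 5 KO mice on chow in each tissue, 4 were the same mice. The mouse that gave liver KO 2 and adipose KO 5 had the highest mean z-score of its group in both tissues, 2.54 in liver and 2.18 in adipose tissue. The mouse of liver KO 5 and adipose KO 4 had 1.997 and 1.18, that of liver KO 3 and adipose KO 2 had 1.82 and 0.21, and that of liver KO 4 and adipose KO 3 had 0.14 and -0.90. The order of these 4 KO mice was thus the same in liver and adipose tissue. The 4 chow WT mice measured in both tissues ran in the opposite order. They went from 0.23 in liver and -1.77 in adipose tissue to -1.03 in liver and 0.23 in adipose tissue. Whether the order is shared between tissues was not tested on the mean z-score. Liver KO 1 and adipose KO 1 came from different mice, each measured in 1 tissue.

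**Figure D4:**
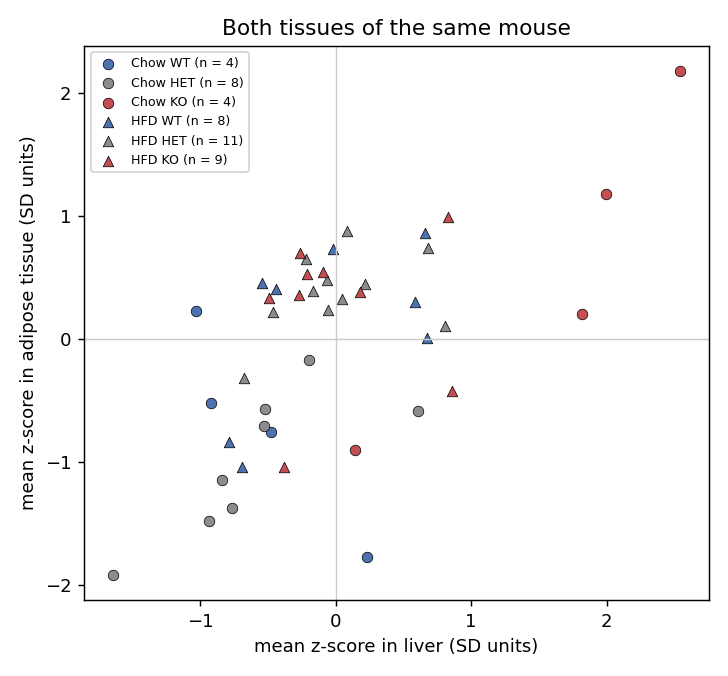
Mean z-score of the 32 members in liver (horizontal) and in gonadal adipose tissue (vertical) of the 44 mice measured in both, in SD units within each tissue. Circles are chow, triangles HFD, and colours give the genotype. The 4 chow KO mice run from 0.14 and -0.90 to 2.54 and 2.18.

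The link between tissues was tested for Adgre1, Cd68 and C1qa within the groups of at least 6 mice, on log2(CPM + 1). Of 12 relations, 1 passed after Benjamini-Hochberg adjustment, C1qa in chow HET mice. Pearson's r was 0.93 (n = 8, exact permutation p = 0.000124, adjusted 0.00149) and Spearman's rho was 1 (exact permutation p = 5e-05, the smallest that 8 mice allow, adjusted 0.000595). Without the 2 mice farthest from the median, r was 0.89. For Adgre1 the largest r was 0.65 in HFD HET (n = 11, permutation p = 0.0287, adjusted 0.172), and 0.62 without 2 mice. For Cd68, r lay between 0.36 and 0.45 and no adjusted p was under 0.05. Both tissues of chow HET 2 in adipose tissue (liver HET 4) were the lowest of that group by mean z-score, at -1.92 and -1.65, and that adipose library carried epididymis transcripts.

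Per kilobase of exon, Lyz2 was the most abundant member in both tissues, at 69.2 CPM per kb in chow WT liver and 1022 in chow WT adipose tissue, followed by C1qb at 36 and 330 and C1qa at 30.4 and 267. These levels were scaled separately in liver and in adipose tissue, so they give the order within a tissue and not the difference between tissues. Compared within mice, in a joint fit of both tissues, most members were higher in adipose tissue than in liver. In chow WT mice 27 of 32 were higher and none lower, where 43.3% of all genes were called higher and 30% lower (73.3% in either direction). The median log2 difference of members was 1.74, against 0.34 over all genes. Ccr2 was 9.59-fold higher (log2 3.26 ± 0.54, edgeR adjusted p = 1.23e-06), Laptm5 8.3-fold (3.05 ± 0.36, 6.52e-10), Cd68 8.11-fold (3.02 ± 0.44, 8.05e-08) and Cd14 8.1-fold (3.02 ± 0.36, 1.31e-09). Mpeg1, Msr1, Clec4n, Fcgr2b and Cx3cr1 did not pass. Of these, 3 lay on the liver side, among them Fcgr2b, at -0.47 ± 0.27 (edgeR adjusted p = 0.111), and Msr1, at -0.74 ± 0.42 (0.109). Leaving out 1 chow WT library in turn gave 20 to 28 members. All were higher in adipose tissue except without liver WT 2, where 19 were higher and 1 was lower.

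In WT mice on HFD 30 members were higher in adipose tissue and 1 was lower, where 46% of all genes passed upwards, 33.4% downwards and 79.4% in either direction. Cd68 was 18-fold higher (log2 4.17 ± 0.31, edgeR adjusted p = 6.53e-16), Lyz2 13.5-fold (3.75 ± 0.31, 2.28e-14), Laptm5 10.8-fold (3.43 ± 0.25, 4.32e-16) and Cd84 10.2-fold (3.35 ± 0.29, 1.34e-13). Clec4n was 1.83-fold lower (-0.88 ± 0.33, edgeR adjusted p = 0.0141). Fcgr2b was the 1 member that did not pass (-0.38 ± 0.19, adjusted p = 0.0643). Markers of resident liver macrophages went the other way, with 8 of 10 lower in adipose tissue in chow WT mice, among them Slc40a1, the iron exporter (21.7-fold, edgeR adjusted p = 1.98e-14), Vsig4 (12.8-fold, 4.04e-12) and Cd5l (34.6-fold, 1.35e-10).

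**Figure D5:**
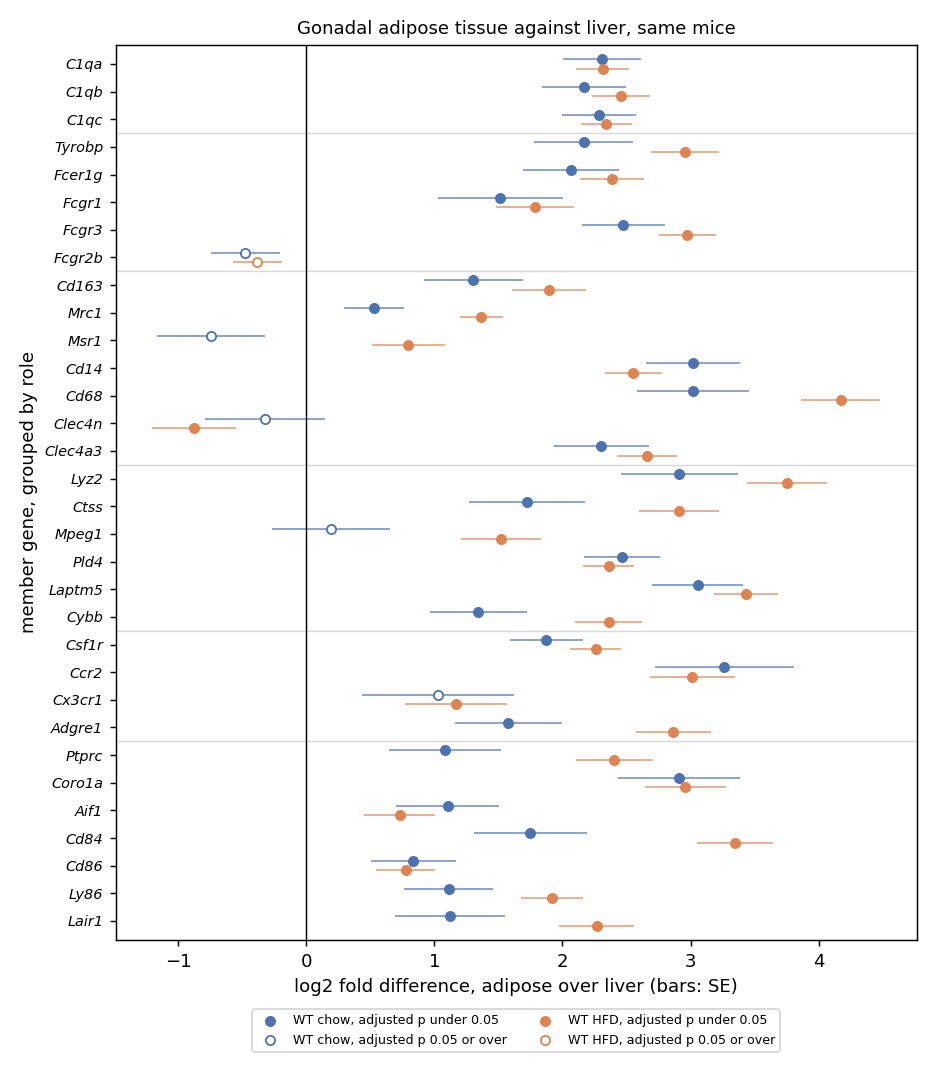
Log2 fold difference of each of the 32 tested members, gonadal adipose tissue over liver of the same mice, in WT on chow (blue) and WT on HFD (orange). Points are the edgeR estimates with mouse as a block, bars are SE, and filled points have an adjusted p under 0.05. Cd68 reaches 4.17 on HFD, and Fcgr2b is open in both diets, at -0.47 and -0.38.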

How the data were processed

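RNA of liver and gonadal adipose tissue was sequenced as stranded poly(A) libraries with single-end reads of 50 bases, per the labels' protocols. The submitters' processing notes name STAR 2.5.1b, featureCounts 1.5 and GRCm38.p5, and give neither strand setting nor annotation. The authors deposited raw counts per Ensembl gene, 1 table a tissue, which were used as deposited. Of 121 labelled samples 120 had a column, adipose chow WT 1 was not analysed here, and 1 unlabelled column was not used. Symbols came from GENCODE M21, and 25723 of 25759 genes had one.

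In all, 3 sets of libraries were fitted separately in R 4.3.3 with edgeR 4.0.16: liver on chow and HFD (11064 genes), liver on Control and Alios (11595) and adipose tissue (14536). A mouse block was used for the tissues (14679 genes). Genes passed edgeR's expression filter at a minimum count of 10 and a minimum total of 15. TMM scaling was used, and p-values were two-sided and Benjamini-Hochberg adjusted over all genes tested. SE is the log2 fold change divided by the square root of F. The single Control KO library entered no test. The test was run on simulated counts that gave each gene the same spread in every group. That run therefore cannot show how the test behaves where a group varies more than the others, as chow KO did by the mean z-score. DESeq2 1.42.0, other scalings, filters, groupings and left-out libraries were alternatives, and those that drop the epididymis, liver-RNA, low-count or KO-level Pepd (labelled HET) libraries were chosen after seeing the data.

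The members and all other gene lists were chosen with earlier results of these data known. Values by library are given for up to 8 called members a main comparison with the smallest adjusted p, any called the opposite way, and a few chosen after their values were seen (Fcgr2b, Cd14, Cd68, Adgre1, Tyrobp and C1qc on other diets). Of other lists up to 3 called genes are named. One gene of these lists is not reported here. In GENCODE, Gm49368 overlaps Itgam and A130071D04Rik overlaps Ptprc on the same strand, Hmgxb3 and Bola2 overlap Csf1r and Coro1a on the opposite strand, and Cx3cr1 overlaps several genes, so those counts are uncertain.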

Additional observations from a re-analysis of the deposited data

Results flagged for a closer look

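The liver library Alios KO 8, with the fewest counts of all, had a mean z-score of the 32 members of -2.41, far from the other 7 Alios KO livers, which lay between 0.00 and 0.53. No member passed between KO and WT on Alios with or without it. Among chow WT livers, WT 1 was set apart from the other four by Csf1r at 62.5 CPM and C1qb at 59 CPM. In all 47 sets of values were examined for such gaps and 3 were found, where chance alone gives about 1 in 20.

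The KO minus WT effect differed between HFD and chow, by the test of the difference itself, in liver for Fcer1g (log2 -1.85) and Tyrobp (-1.68). In adipose tissue it differed for Aif1 (-2.87), Fcgr2b (-1.89), Ly86 (-2.29), Clec4n (-2.89), Pld4 (-1.48), Ccr2 (-1.87), Coro1a (-1.76), Fcgr1 (-2.54), Cx3cr1 (-2.20) and Cd86 (-1.08). All were lower on HFD.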

How the results depend on the processing

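Counts of called members that moved by more than 1.5 times were as follows, with edgeR's main count first. With only the groups compared in the fit, KO against WT on chow went from 24 to 0 in liver and from 17 to 0 in adipose tissue, KO HFD against chow in liver from 18 to 11, and the difference of KO effects from 2 to 0 in liver and from 10 to 3 in adipose tissue. For that liver difference, DESeq2 gave 14, a minimum mean of 1 CPM gave 4, all 12 liver groups gave 17, and no filter on low counts and the run of mouse numbers gave 0. DESeq2 called 8 members in WT adipose HFD against chow, where edgeR called 0. Without libraries with epididymis transcripts, adipose chow KO against WT gave 11 and the adipose difference 5. The cause of these changes was not tested.

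Leaving out 1 library at a time gave 2 to 27 members for liver chow KO against WT, 18 to 27 for KO against HET, 8 to 25 for KO HFD against chow and 0 to 20 for the difference. In adipose tissue it gave 8 to 26 for chow KO against WT, 0 to 15 for WT HFD against chow, 13 to 16 for KO HFD against chow and 4 to 13 for the difference, and 20 to 28 for adipose against liver in chow WT. Every other comparison with a group of 2 to 5 kept 0.

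Replicate numbers were not taken to pair mice, since in no set of KO and WT libraries did every same-numbered pair correlate above 0.1. The correlation of deviations ran from -0.22 to -0.00 in the 5 liver chow pairs and from -0.16 to 0.41 in the 6 Alios pairs, of which 4 were above 0.1 and 4 correlated best with their own number. With the replicate number as a block, liver HET HFD against chow gave 2 members instead of 4, the liver difference 0 instead of 2, and the adipose difference 5 instead of 10. Liver chow KO against WT gave 16 and adipose chow KO against WT 12. Over all settings, 2039 recomputed values of called members kept their side of the threshold and 303 lost it, and none changed sign. The lowest members, at 1 to 5 CPM in liver (Cd14, Ccr2, Clec4a3, Fcgr1), rest on few counts.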
